A study of Mus musculus with 57 samples.

Results

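Somites are the blocks of paraxial mesoderm that flank the neural tube, and *Hoxa5* is one of the *Hox* genes expressed in those of the neck and upper thorax. The comparison described here set somites of *Hoxa5*-/- embryos against somites of wild-type (wt) embryos at embryonic day E10.5. It used 7 of the 57 bulk RNA-seq libraries of a study of *Hoxa5* loss in several tissues, 4 of wt and 3 of *Hoxa5*-/- embryos. Its members were the genes with a mean of at least 1 TPM (transcripts per 1000000, a level scaled for gene length and depth) in either genotype, 18573 of the 56860 genes counted. Per the paper, the mouse lines were kept on the 129/Sv background. Nothing in the labels distinguished the groups other than the *Hoxa5* genotype. The null allele carries a neomycin cassette inserted into the homeobox, and it is constitutive, so every cell of a mutant embryo carried it. Counts over the whole gene still include reads of the interrupted transcript. As the paper describes it, the tissue was the trunk from segment C3 to T2, freed of neural tube, forelimbs and thoracic organs. Neural tube markers were nevertheless present in all libraries, as given below. Somite libraries of the same genotypes at E12.5, 4 of each, are given where a difference between stages is needed. The labels number the samples of a group but tie them to no litter or dissection day, so the p-values measure the spread between these samples.

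HOX proteins are homeodomain transcription factors. Their genes lie in 4 clusters, and their expression along the body axis, in the order of the genes in each cluster, sets the identity of the vertebrae and other segmental structures. TALE homeodomain proteins of the PBX, MEIS and PKNOX families bind DNA together with them. In the somite, the ventral sclerotome gives vertebrae and ribs, and the dorsal dermomyotome gives dermis, brown fat and muscle. The myotome below it holds the first muscle fibres, and the syndetome gives tendons. Loss of *Hoxa5* is known for altered identity of cervical and upper thoracic vertebrae.

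Total counts ranged from 23364458 to 27352682 in wt and from 26396434 to 26947284 in *Hoxa5*-/- libraries. One wt library, replicate 3, stood on the side of the mutants on the first axis of variation. On the first principal component of log2 CPM (counts per 1000000), which held 28.3% of the variance, wt replicates 1, 2 and 4 lay at 47.4, 22.1 and 36.5. Wt replicate 3 lay at -17.4, beside *Hoxa5*-/- replicates at -25.8, -34.9 and -27.9. Its root mean square difference over all tested genes, on the log2 scale, was 0.5997 to *Hoxa5*-/- replicate 1, 0.607 to replicate 2 and 0.646 to replicate 3. To wt replicates 1, 2 and 4 the difference was 0.676, 0.689 and 0.637. The second component, with 21.2% of the variance, did not order the libraries by genotype. It put *Hoxa5*-/- replicate 1 at 35.1 and replicate 3 at -48.0. Over all tested genes, 22.8% of the variance lay between genotypes, where groups of these sizes give 16.7% if libraries do not differ by group. The share of counts in ribosomal protein genes was 6.14%, 5.69% and 5.42% in wt replicates 1, 2 and 4. It was 4.34% in wt replicate 3 and 4.45%, 4.54% and 4.77% in the mutants. *Xist*, the RNA that silences an X chromosome in female cells, was above 288 TPM in wt replicates 1, 3 and 4 and in *Hoxa5*-/- replicate 3. It was below 0.577 TPM in the others, where Y-linked *Ddx3y* lay between 45.8 and 47.9 TPM.

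Libraries of the same nominal stage also differed along the change from E10.5 to E12.5. Each E10.5 library was placed on the axis from the mean of the other E10.5 libraries (0%) to the mean of the 8 E12.5 libraries (100%). The wt replicates 1 to 4 lay at -0.80%, -3.32%, 2.72% and 2.85%, and the *Hoxa5*-/- replicates at 11.1%, 6.34% and -2.56%. Thus 2 mutant libraries lay further along than every wt library and the third among the lowest. Over the 500 genes of highest variance, wt replicate 4 (3.16%) lay above *Hoxa5*-/- replicate 2 (2.73%), so that only replicate 1 lay beyond all wt libraries. The genotypes differed by 4.61 percentage points, and an exact permutation test of either direction gave p = 0.286. With 35 possible splits the smallest p is 0.0571, so no difference could have passed 0.05.

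**Figure D1:**
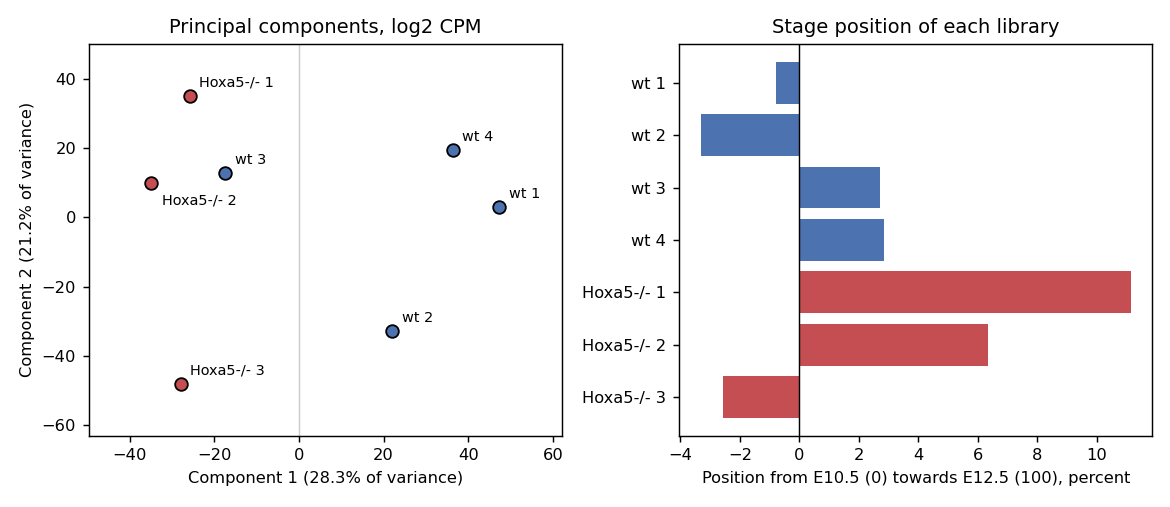
Left, the 4 wt (blue) and 3 *Hoxa5*-/- (red) somite libraries at E10.5 on the first 2 principal components of log2 CPM; each point is a library, and wt replicate 3 at -17.4 lies on the side of the mutants. Right, the position of each library between the mean of the other E10.5 libraries (0%) and of the E12.5 libraries (100%); bars run from -3.32% to 11.1%, with the mutants at 11.1%, 6.34% and -2.56%.

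*Hoxa5* fell in mutant somites, 2 genes of chromosome 14 rose and 1 pseudogene fell. These 4 genes were 0.0215% of the 18573 tested. A gene was called at an adjusted p under 0.05 and a fold of at least 1.5 in the quasi-likelihood test of edgeR, adjusted by Benjamini-Hochberg over all tested genes. All adjusted p-values for the genotypes come from that test unless another is named. All mutant libraries lay above all wt libraries for 766 genes (4.12%) and below them for 749 (4.03%). Overlap between groups was judged on CPM scaled with the TMM factors of the test, and these shares are its background. With *Xist* as a covariate, *Tmem254* kept its call, and *Hoxa5* (adjusted p = 0.209), *Duxbl1* (adjusted p = 0.104) and *Gm6969* (adjusted p = 0.126) lost theirs, with log2 fold changes of -0.93, 0.95 and -1.23. The libraries with *Xist* near 0 and *Ddx3y* present were 1 of 4 in wt and 2 of 3 in mutants. In bulk samples, fewer cells of a type and less RNA per cell cannot be told apart.

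The targeted gene, *Hoxa5* (chr6:52178734-52181567, GRCm39), was at 173, 164, 236 and 171 TPM in wt replicates 1 to 4. It was at 112, 108 and 85.2 TPM in the *Hoxa5*-/- replicates. Every mutant library was below every wt library, and wt replicate 3 was the highest of all 7. Means were 186 ± 33.7 (SD, n = 4) and 102 ± 14.4 TPM (SD, n = 3), giving a log2 fold change of -0.92 (SE 0.12, adjusted p = 0.0459). By DESeq2 (Wald test), the test of the study, the log2 fold change was also -0.92, with an adjusted p of 3.9e-09. The edgeR call depended on the libraries used. Without any 1 library the log2 fold change stayed between -0.97 and -0.81. The adjusted p of edgeR then lay between 0.00518 (without wt replicate 3) and 0.307. It passed 0.05 only without wt replicate 3. At E12.5 *Hoxa5* was at 92.7 to 112 TPM in wt and 29.2 to 43.5 TPM in mutants, a log2 fold change of -1.60 (adjusted p = 0.000562). It was the 1 gene of 18906 tested that was called at that stage (0.00529%). The difference between the stages was -0.68 (SE 0.17) on the log2 scale and did not pass its own test, with an adjusted p of 0.327.

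*Tmem254* (chr14:25923724-25928096), which codes for a transmembrane protein, showed the lowest p of all genes. It was at 12.6, 13.4, 16.6 and 16.3 TPM in wt and at 41.5, 38.0 and 36.8 TPM in mutants. The groups were far apart, with wt replicate 3 among its own group. The means of 14.7 ± 2.001 and 38.8 ± 2.48 TPM gave a log2 fold change of 1.35 (SE 0.11, adjusted p = 0.00184). It was called without any 1 library, with adjusted p from 0.000671 to 0.0360. At E12.5 both genotypes were near the level of the E10.5 mutants, wt at 34.2 to 36.4 TPM and *Hoxa5*-/- at 30.9 to 37.1 TPM. There the log2 fold change was -0.04.

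*Duxbl1* (chr14:25979001-25990512), a double homeobox gene, lies next to *Tmem254* on the same chromosome. It was at 10.3, 9.02, 10.2 and 10.99 TPM in wt and at 21.4, 19.3 and 18.7 TPM in mutants, again without overlap. The log2 fold change was 0.92 (SE 0.10, adjusted p = 0.0319). It passed 0.05 only without wt replicate 3 (adjusted p = 0.00518) and without *Hoxa5*-/- replicate 3 among the 7 fits without 1 library, the highest adjusted p being 0.307. At E12.5 it was lower in both genotypes, at 3.91 to 5.70 TPM in wt and 4.57 to 5.74 TPM in mutants.

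The other 10 tested genes within 500 kb of *Tmem254*, looked at after its values were seen, included none that was called. *Zmiz1*, a PIAS-like transcriptional coactivator, was at 60.5, 68.9, 95.3 and 68.8 TPM in wt and 87.8, 84.1 and 84.8 TPM in mutants, with a log2 fold change of 0.18. Those of *Ppif*, *Zcchc24*, *Anxa11*, *Slmap* and *Dennd6a* lay between 0.14 and 0.34, and *Arf4* and *Pde12* were at -0.11 and 0.00. *Anxa11*, an annexin at 3.04 to 4.28 TPM in wt and 4.13 to 5.23 TPM in mutants, overlapped in TPM but not in scaled CPM. *Arf4os*, a noncoding RNA below 1.78 TPM in every library, was at -1.34, and *Mir3075* at -0.95.

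**Figure D2:**
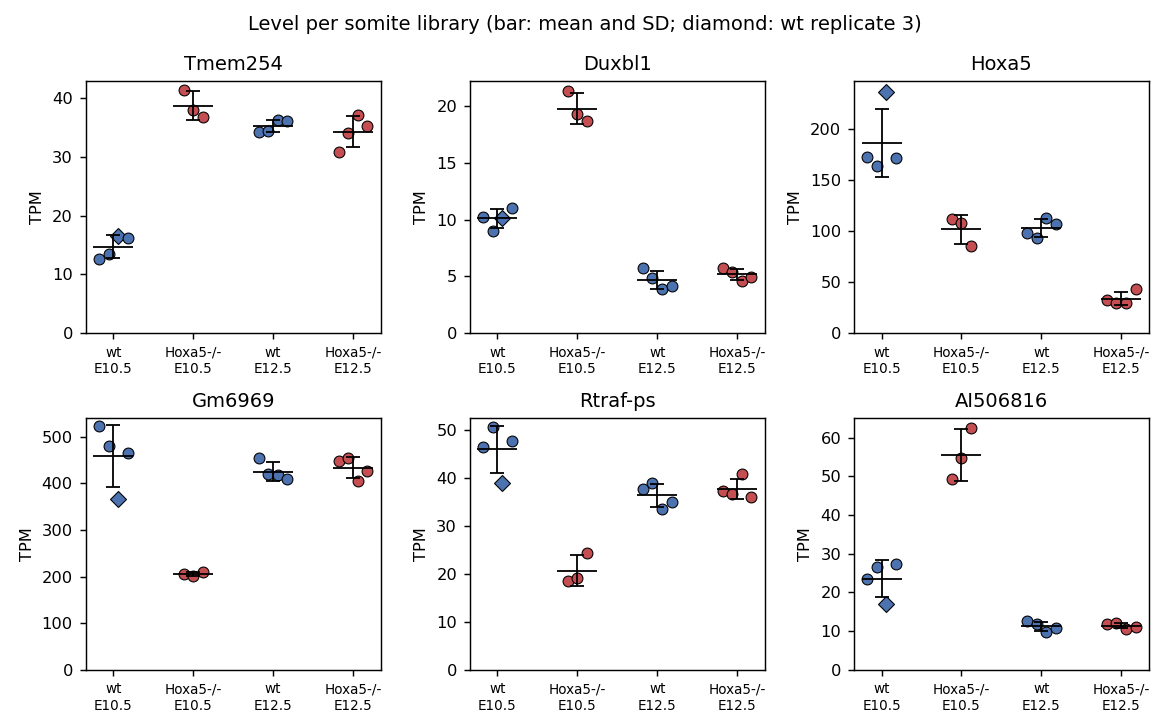
TPM of *Tmem254*, *Duxbl1*, *Hoxa5*, *Gm6969*, *Rtraf-ps* and *AI506816* in each somite library of wt (blue) and *Hoxa5*-/- (red) embryos at E10.5 and E12.5, with wt replicate 3 of E10.5 as a diamond; bars give the mean and SD. *Tmem254* was at 12.6 to 16.6 TPM in wt and 36.8 to 41.5 TPM in mutants at E10.5, and at 30.9 to 37.1 TPM in all 8 libraries at E12.5.

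*Gm6969* (chr12:24688668-24689009) fell. It is a processed pseudogene, an intronless copy of a spliced transcript, here of *Cox7a2l*, which codes for an assembly factor of respiratory chain supercomplexes. Over its 342 exon bases it was 97.7% identical to a *Cox7a2l* transcript, with 2 mismatches and 6 gap columns. The mismatches were A220T and T309C, given as the base of the pseudogene, its position from the first exon base, and the base of *Cox7a2l*. The stretch that holds the gap is shown because it contains most of what separates reads of these genes. Capitals mark the bases that differ or are missing in the other, *Gm6969* spans chr12:24688765-24688821 on the minus strand of GRCm39 and *Cox7a2l* is the transcript of chromosome 17.
Gm6969: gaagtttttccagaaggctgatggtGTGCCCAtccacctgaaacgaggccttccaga
Cox7a2l: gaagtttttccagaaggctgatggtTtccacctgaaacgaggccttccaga

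*Gm6969* was at 522, 479, 366 and 466 TPM in wt and at 205, 200.4 and 209 TPM in mutants. The mutants were closer to each other than any pair of wt libraries, and wt replicate 3 was the lowest of its group without reaching them. The log2 fold change was -1.22 (SE 0.15, adjusted p = 0.0384). Without any 1 library the adjusted p lay between 0.000394 (without wt replicate 3) and 0.307, and it passed 0.05 only without wt replicate 3. At E12.5 the genotypes overlapped, at 409 to 455 TPM in wt and 404 to 454 TPM in mutants. Since the counts of near-identical copies can be split between them by small differences in the reads, the level of *Gm6969* is uncertain, and both genes were set side by side. *Cox7a2l* itself had 127, 109.2, 84.6 and 117 CPM in wt and 102, 99.4 and 91.4 CPM in mutants, which overlapped. *Gm6969* made up 29.8%, 30.4%, 28.7% and 28.2% of the counts of the pair in wt, and 15.8%, 16.0% and 17.9% in mutants. In that share wt replicate 3 lay with the other wt libraries, and all 8 libraries at E12.5 lay with them too, at 27.7% to 29.9%.

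Further processed pseudogenes that lay just outside the threshold showed the same split of shares. *Rtraf-ps*, a copy of the RNA-binding factor gene *Rtraf* at 98.6% identity, was at 46.3, 50.6, 38.95 and 47.5 TPM in wt and at most 24.3 TPM in mutants (log2 fold change -1.20, SE 0.18, adjusted p = 0.0890). Its share of the pair was 6.65% to 7.73% in wt, 2.95% to 3.70% in mutants and 6.12% to 7.13% at E12.5. *Gm11868*, a copy of the cytochrome b5 reductase gene *Cyb5r4* at 98.0% identity, was at 32.2, 32.7, 26.0 and 29.3 TPM in wt and 13.2, 16.5 and 15.6 TPM in mutants (log2 fold change -1.05, SE 0.16, adjusted p = 0.114). Its share was at least 16.2% in wt, 7.12% to 8.86% in mutants and 13.7% to 19.2% at E12.5. *Rtraf-ps* overlaps the coding gene *Ssr2*, and the strand setting of the counting is not given in the sources used here, so reads of both cannot be told apart.

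Other copies divided the mutants among themselves. *Rpl15-ps6*, a copy of the ribosomal protein gene *Rpl15* that differs from it by G156A and A202C, made up 12.3% to 13.7% of the pair in wt. It made up 13.3% in *Hoxa5*-/- replicate 1 and 6.51% and 5.96% in replicates 2 and 3. *Gm6123*, a copy of the pyruvate dehydrogenase subunit gene *Pdhb*, divided them the same way, with 9.05% to 10.7% in wt and 8.93%, 5.06% and 5.08% in mutants. For both, the E12.5 libraries lay with the wt range or close to it, at 12.1% to 13.6% and 8.81% to 10.47%.

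Several other pairs put wt replicate 3 on the side of at least 1 mutant and against the other wt libraries, and 3 of them are described. *Gm13736*, identical over its 253 exon bases to the signal recognition particle gene *Srp9*, made up 16.6% of the pair in wt replicate 3 and 16.8% and 16.2% in *Hoxa5*-/- replicates 1 and 3. It made up at most 0.448% in the other 4 libraries and 0.321% at E12.5. *Gm4735*, a copy of the enolase gene *Eno1b* that differs by C747T, G750A and T1047C, made up 26.5% in wt replicate 3 and 26.8% and 27.0% in *Hoxa5*-/- replicates 2 and 3. In the remaining libraries it made up at most 1.77%.

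*Gm28438*, a copy of mitochondrial *mt-Nd3* that sits in chromosome 1, took 93.9%, 97.1% and 93.9% of the pair in wt replicates 1, 2 and 4 and 12.6% in wt replicate 3. In mutants it took 15.6%, 11.4% and 7.56%, and at E12.5 96.3% to 98.3% in both genotypes. *mt-Nd3* codes for a subunit of respiratory complex I. Over 345 exon bases the copies differ by 1 substitution, C3T, with the base of *Gm28438* first. Their first 60 bases are shown because a single base, in capitals, is all that separates them (chr1:24652141-24652200, minus strand, and chrM:9459-9518, plus strand).
Gm28438: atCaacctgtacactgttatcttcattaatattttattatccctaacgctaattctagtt
mt-Nd3: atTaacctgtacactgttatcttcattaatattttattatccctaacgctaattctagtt

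Of 44 genes looked at for near copies, which were called, named by rule or high in some libraries and near 0 in others, 18 had one over at least 80% of their exon bases. Among them were 15 of 16 pseudogenes. The rule asked for a single alignment to a coding transcript, which intronless copies meet more readily than spliced genes. That none was found for *Tmem254* or *Duxbl1* therefore does not show that they lack near copies. The shares of each pair rest on uniquely mapped reads, since the paper used only those. Whether the libraries differed in the bases shown was not tested, since reads were not analysed here.

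**Figure D3:**
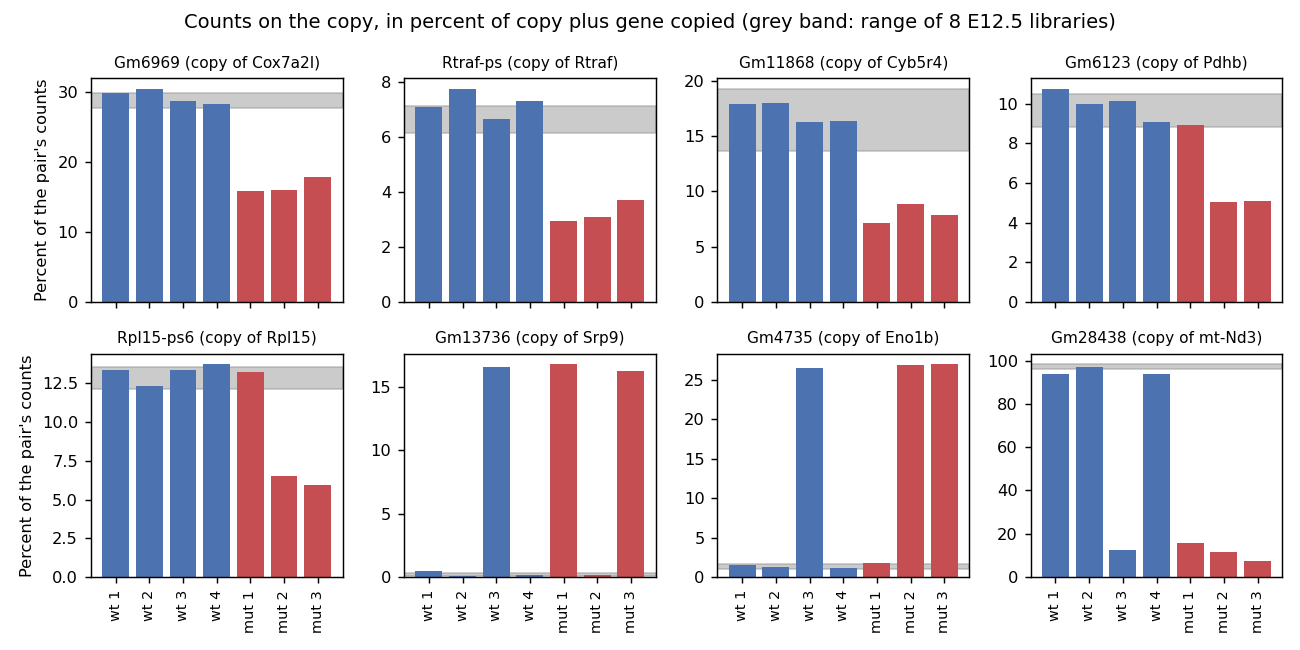
Counts on each of 8 pseudogenes in percent of the counts on the pseudogene plus the gene it copies, per E10.5 library (wt replicates in blue, *Hoxa5*-/- replicates, marked mut, in red); the grey band is the range of the 8 E12.5 libraries. *Gm6969*, *Rtraf-ps* and *Gm11868* are lower in all mutants, while *Gm13736*, *Gm4735* and *Gm28438* put wt replicate 3 with mutants, at 16.6%, 26.5% and 12.6%.

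With DESeq2 (Wald test), 18 of these genes were called (0.0969%), among them the 4 above. The genes nearest to the threshold were chosen by p among those whose groups did not overlap and whose fold was at least 1.5, 10 in each direction. The noncoding RNA *AI506816* on chromosome 5 was at 23.5, 26.5, 16.9 and 27.2 TPM in wt and 49.2, 54.8 and 62.5 TPM in mutants, with a log2 fold change of 1.18 (SE 0.17, adjusted p = 0.0890). Its neighbour *Gm43566*, also noncoding, was at 5.76 to 8.59 TPM in wt and 12.3 to 13.8 TPM in mutants (0.76, SE 0.19). At E12.5 *AI506816* was at 9.86 to 12.6 TPM in all 8 libraries. Thus its E12.5 level was below that of both genotypes at E10.5.

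The 10 genes with values above 0 chosen in this way did not pass the test. *Acta1*, skeletal muscle alpha-actin, was at 25.8, 22.2, 56.8 and 34.1 TPM in wt and 68.2, 86.9 and 89.4 TPM in mutants (log2 fold change 1.20, SE 0.25). *Lmod1*, which nucleates actin filaments in smooth muscle, was at 1.66 to 2.39 TPM and 3.17 to 3.77 TPM (0.70, SE 0.18). *Cldn8*, a tight junction claudin, was at 0.267 to 0.693 TPM and 1.33 to 2.46 TPM (1.78, SE 0.35). *Slc25a48*, a mitochondrial carrier, was at 0.559 to 1.33 TPM and 1.92 to 2.83 TPM (1.39, SE 0.31). *Exoc3l2*, related to an exocyst subunit, had a log2 fold change of 0.64, and *Sgpp2*, a sphingosine phosphate phosphatase whose gene overlaps *Farsb*, 0.78. The mitochondrial tRNA gene *mt-Te* was at 13.8 to 27.8 TPM in wt and 45.5 to 55.9 TPM in mutants (1.22, SE 0.30). The pseudogene *Rps13-ps2*, identical to *Rps13* over its 453 exon bases, was at 2.22 to 3.30 and 3.62 to 10.1 TPM (1.36, SE 0.37). It made up at most 0.1186% of the counts of the pair in wt and 0.3265% in mutants, so its level is uncertain. Apart from *AI506816*, each of these 10 had an adjusted p of 0.391.

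Those lower in mutants were mostly noncoding. The RNA named *ENSMUSG00000120284*, on chromosome 15, was at 72.4, 88.1, 64.7 and 86.0 TPM in wt and 37.8, 42.4 and 40.9 TPM in mutants (log2 fold change -1.0, SE 0.14, adjusted p = 0.0818). At E12.5 it was at 33.0 to 41.6 TPM over both genotypes, below every E10.5 wt library. *Gm28277* was at 2.31 to 3.84 TPM and 0.308 to 1.06 TPM (-2.52, SE 0.47). *Gm45309* (-1.62), *Gm48740* (-1.38) and *Gm11706* (-1.28, overlapping *Cep95*) are noncoding too, and all 3 were at or below 13.5 TPM in every library. *H2ac10*, a replication-dependent H2A histone gene with the near copy *H2ac7*, was at 5.92 to 10.1 TPM in wt and 1.68 to 3.42 TPM in mutants (-1.63, SE 0.37). *Gm2974*, which has the near copy *Gm3005*, was at 4.65 to 5.94 and 1.96 to 3.39 TPM (-1.19, SE 0.24). *Hoxaas3*, an antisense RNA that overlaps *Hoxa7*, was at 24.2, 19.6, 27.1 and 26.9 TPM in wt and 20.3, 15.2 and 13.0 TPM in mutants. It overlapped in TPM but not in scaled CPM, with a log2 fold change of -0.65 (SE 0.15). Besides *ENSMUSG00000120284*, *Rtraf-ps* and *Gm11868*, the genes of this group had an adjusted p of 0.391.

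Of the 39 *Hox* genes, 27 were tested, and *Hoxa5* was the only one called. All 8 tested *HoxA* genes had a log2 fold change below 0, from -0.92 to -0.10 with a median of -0.33, where the median of all tested genes was -0.005. The tested genes of the other clusters mostly had values above 0, with 8 of 9 in *HoxB* (median 0.19), 3 of 5 in *HoxC* (0.05) and 3 of 5 in *HoxD* (0.05). Without wt replicate 3 these medians were 0.34, 0.39 and 0.41. *Hoxa5* apart, the groups of every tested *Hox* gene overlapped in scaled CPM. *Hox* genes of paralog group 10 and beyond were below the TPM minimum in all 4 clusters, and *Hoxd9* and *Hoxc9* were the last genes of their clusters to be tested.

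The *HoxA* genes that flank *Hoxa5* did not separate by genotype. *Hoxa4* was at 57.7, 52.7, 72.2 and 55.8 TPM in wt and 47.3, 53.7 and 55.2 TPM in mutants (log2 fold change -0.24, SE 0.12). *Hoxa6* was at 63.2, 60.8, 89.4 and 65.5 TPM in wt and 67.2, 48.7 and 34.2 TPM in mutants (-0.53, SE 0.19). Wt replicate 3 was the highest library for both, and *Hoxa5*-/- replicate 1 was within the wt range for *Hoxa6*. *Hoxa7* (-0.42, SE 0.31) and *Hoxa9* (-0.66, SE 0.25) were also highest in wt replicate 3, at 61.5 and 25.8 TPM. *Hoxa2* (-0.10) and *Hoxa3* (-0.15), genes of more anterior limits, had smaller values. Summed over the cluster, *HoxA* genes were at 494, 480, 671 and 490 TPM in wt and 428, 405 and 366 TPM in mutants, without overlap. *Hoxa5* itself is part of that sum. Without wt replicate 3 the median of the 8 genes was -0.18.

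Noncoding genes and neighbours of the cluster gave a mixed picture, with none called within 500 kb besides *Hoxa5*. *Hotairm1*, a noncoding RNA from the 3' end of the cluster, was at 31.9 to 42.5 TPM in wt and 33.2 to 39.98 TPM in mutants (-0.04, SE 0.14). *Hoxaas2* was at -0.12 (SE 0.11), and *Halr1* at -0.24 (SE 0.17). *Gm15050* was at 108, 82.6, 90.5 and 103 TPM in wt and 83.2, 71.1 and 82.3 TPM in mutants (-0.34, SE 0.14), and *Gm28308* at 1.51 to 2.84 and 0.715 to 1.09 TPM (-1.42, SE 0.41). *Skap2*, a signalling adaptor gene on the 3' side of the cluster, was at 27.0, 27.0, 24.8 and 27.7 TPM in wt and 21.0, 22.6 and 22.8 TPM in mutants, without overlap (-0.32, SE 0.09, adjusted p = 0.391). On the other side, the homeobox gene *Evx1* was at -0.37 (SE 0.29) and *Hibadh*, of valine breakdown, at 0.17 (SE 0.10).

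None of the 9 *HoxB* genes was called. *Hoxb5*, the *HoxB* paralog of *Hoxa5*, was at 73.1, 64.1, 97.7 and 61.6 TPM in wt and 96.5, 95.0 and 105 TPM in mutants (log2 fold change 0.37, SE 0.13). *Hoxb8* was at 146, 145, 231 and 131 TPM in wt and 221, 187 and 230.2 TPM in mutants (0.34, SE 0.16). *Hoxb1* was at 14.4, 27.8, 30.1 and 17.1 TPM in wt and 26.7, 28.9 and 50.5 TPM in mutants (0.63, SE 0.28). Summed *HoxB* TPM was 992, 1066, 1509 and 997 in wt and 1354, 1284 and 1347 in mutants. All 3 mutants lay between wt replicate 3 and the other wt libraries. *Hoxb7*, at 131 to 143 TPM and 126 to 137 TPM, was the 1 gene of the cluster below 0 (-0.12, SE 0.08).

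*Hoxc5*, the *HoxC* paralog, was at 60.8, 80.5, 107 and 72.8 TPM in wt and 121, 108.9 and 84.1 TPM in mutants (log2 fold change 0.34, SE 0.15). *Hoxc9*, whose wt levels ran from 1.04 to 13.3 TPM and mutant levels from 0.592 to 8.62 TPM, overlapped widely (-0.27, SE 0.74). *Hoxd1* was at 9.25, 13.6, 19.2 and 14.8 TPM in wt and 18.7, 22.9 and 23.9 TPM in mutants (0.59, SE 0.19, adjusted p = 0.391). It was the second of 2 *Hox* genes called without wt replicate 3 (0.74, adjusted p = 0.0314). That fit was picked because it changed the count of calls most, so its p is descriptive only. The 4 libraries of *Hoxd4* in wt ranged from 69.0 to 71.0 TPM and the mutants from 71.5 to 73.3 TPM, adjoining ranges that overlapped in scaled CPM (-0.01, SE 0.09). The 9 TALE genes had values from 0.03 to 0.22, and none was called. *Meis2* was at 60.02, 67.1, 81.0 and 65.2 TPM in wt and 84.1, 82.2 and 78.2 TPM in mutants (0.21, SE 0.08). It was the 1 TALE gene without overlap in scaled CPM, though its TPM overlapped through wt replicate 3. *Pbx2*, at 159 to 229 TPM and 220 to 236 TPM, had 0.22 (SE 0.10).

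**Figure D4:**
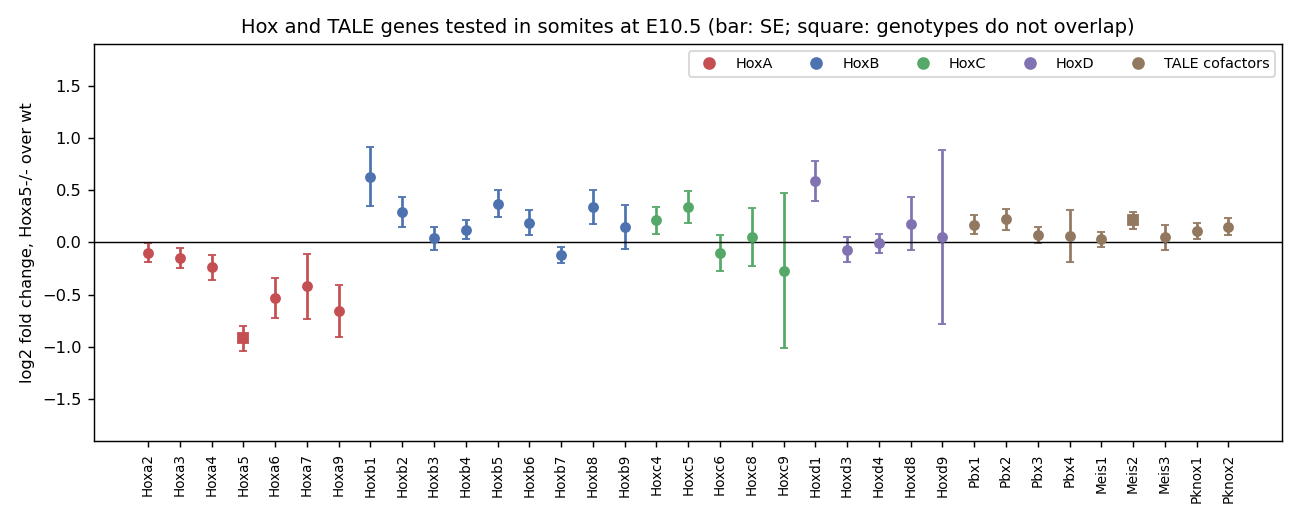
Log2 fold change of *Hoxa5*-/- over wt at E10.5 with its SE for 26 of the tested *Hox* genes and 9 TALE genes, coloured by cluster or family; squares mark genes whose genotypes did not overlap in scaled CPM. The 7 *HoxA* genes plotted lie below 0, from -0.92 for *Hoxa5* to -0.10, and only *Hoxa5* and *Meis2* are squares.

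Genes of the somite compartments had mostly small positive fold changes, and none of them was called. Over 35 gene lists with 402 symbols, 350 were tested and 1, *Hoxa5*, was called. The median log2 fold change was above 0 in 29 lists, and in 28 by the summed CPM, with 4 lists differing in sign between these measures. For comparison, 9156 of all 18573 tested genes were above 0, and the median of coding genes was 0.03. The libraries held the defining transcripts of their labelled tissue, among them *Twist1*, *Pax1* and *Tcf15*. Their levels are given below.

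In the sclerotome list 9 of 11 tested genes were above 0, with a median of 0.24. *Foxc2*, a forkhead factor of sclerotome, was at 30.0, 32.3, 37.5 and 31.0 TPM in wt and 47.7, 50.9 and 38.2 TPM in mutants, without overlap (0.43, SE 0.11). *Twist1*, a mesenchymal bHLH factor, was at 218, 256, 318 and 268 TPM in wt and 333, 332 and 302 TPM in mutants (0.24, SE 0.09). *Pax1*, a paired box factor of sclerotome, was at 34.4, 26.3, 55.8 and 46.6 TPM in wt and 51.8, 69.1 and 34.3 TPM in mutants (0.30, SE 0.24). *Nkx3-2*, which acts downstream of hedgehog signals in sclerotome, was at 10.02 to 14.3 TPM and 7.15 to 17.2 TPM (-0.11, SE 0.25). The summed list was at 654 to 855 TPM in wt and 789 to 960 TPM in mutants.

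In the dermomyotome list 12 of 13 tested genes were above 0, with a median of 0.33. *Tcf15*, the bHLH factor of somite epithelium, was at 62.6, 80.02, 112 and 82.1 TPM in wt and 118, 129.8 and 129 TPM in mutants, without overlap (0.54, SE 0.14). *En1*, of the central dermomyotome, was at 17.8, 19.9, 39.6 and 21.1 TPM in wt and 37.8, 36.9 and 40.9 TPM in mutants (0.61, SE 0.21). For *En1*, wt replicate 3 lay inside the mutant range and the other wt libraries far below. *Sim1*, a bHLH-PAS factor, was at -0.08 (SE 0.13).

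In the myotome list 11 of 13 were above 0, with a median of 0.27. *Des*, which codes for the muscle intermediate filament desmin, was at 22.7, 32.7, 43.4 and 28.2 TPM in wt and 46.5, 49.9 and 49.4 TPM in mutants, without overlap (0.57, SE 0.16). *Mef2c* was at 9.13 to 11.8 and 12.1 to 13.8 TPM (0.23, SE 0.08). Embryonic myosin heavy chain, *Myh3*, ranked the mutants as their stage position did, at 143, 108.8 and 84.7 TPM, and was at 46.7 to 111 TPM in wt (0.54, SE 0.23). *Myf6*, a myogenic bHLH factor, was at -0.01 (SE 0.15). The sum of the list was at 467 to 784 TPM in wt and 598 to 937 TPM in mutants, and 4185 to 5661 TPM at E12.5.

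The tendon and cartilage lists, whose genes come up later, had wide ranges. Of 7 tested tendon genes 6 were above 0 (median 0.43). *Etv5*, a target of FGF signals, was at 15.7, 16.8, 31.6 and 21.4 TPM in wt and 29.4, 31.8 and 27.3 TPM in mutants (0.43, SE 0.18), and *Scx*, the first tendon marker, at 5.57 to 13.7 and 5.85 to 15.7 TPM (-0.14, SE 0.34). Cartilage genes had a median of 0.07 over 12. *Col2a1* was at 129 to 198 and 142 to 213 TPM (0.19, SE 0.15), and *Sox9* at 65.2 to 113 and 79.9 to 111 TPM (0.18, SE 0.15). Both genotypes stood far below the 3125 to 5277 TPM that the cartilage list summed to at E12.5.

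Retinoic acid patterns the paraxial mesoderm, and its synthesis and breakdown set *Hox* expression limits. *Aldh1a2*, the enzyme that makes it in trunk mesoderm, was at 168, 222, 249 and 173 TPM in wt and 294, 319 and 315 TPM in mutants, without overlap (log2 fold change 0.56, SE 0.12, adjusted p = 0.391). Wt replicate 3 was again the highest of its group. The degrading enzymes *Cyp26a1*, *Cyp26b1* and *Cyp26c1* had 0.27, 0.32 and 0.33, and the receptor *Rara* 0.30 (SE 0.12). The binding proteins *Crabp1*, at 1208 to 1394 and 1145 to 1326 TPM, and *Crabp2*, at 746 to 1032 and 653 to 995 TPM, had -0.13 and -0.20. In all, 9 of 13 tested genes were above 0 (median 0.27) and none was called.

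Of 11 tested hedgehog genes, 8 had values above 0, among them the coreceptors *Gas1* and *Cdon*, and none was called. The receptor gene *Ptch1* (-0.15, SE 0.08) and the target gene *Gli1* (-0.09, SE 0.10) had values below 0. *Gas1* was at 128, 179, 223 and 159 TPM in wt and 226, 232 and 256 TPM in mutants, without overlap (0.43, SE 0.14). In the segmentation list, *Hes7*, *Mesp2*, *Msgn1* and *Ripply1* were below the TPM minimum, and *Tbx6* was at 1.21 to 2.37 TPM in wt and 1.66 to 2.16 TPM in mutants. *Dll1*, a Notch ligand, was at 59.1 to 79.5 and 62.5 to 70.7 TPM (-0.05, SE 0.10).

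Markers of tissues that adjoin the somites varied between libraries of a genotype. Neuron markers summed to 1623, 1101, 1902 and 1817 TPM in wt and 2214, 1783 and 1123 TPM in mutants, and the median of the 13 genes was 0.00. *Tubb3*, neuronal tubulin, alone was at 530.5 to 933 and 553 to 1042 TPM. Neural tube progenitor markers summed to 984, 939, 1212 and 958 TPM in wt and 1102, 1040 and 1185 TPM in mutants. Both were above their E12.5 range, 353 to 930 TPM and 436 to 538 TPM. Neural tube markers were thus present in every library despite the dissection, such as *Sox2* at 121 to 217 TPM in wt and 151 to 232 TPM in mutants. Of the neural crest and glia list *Foxd3*, an early neural crest factor, was at 9.41 to 13.6 and 13.7 to 17.8 TPM without overlap (0.45, SE 0.15).

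Surface ectoderm markers summed higher in every mutant library than in any wt library, as did 2 of the 35 lists in all. Among single genes, by scaled CPM, 4.12% did so. The ectoderm sum was 76.5, 122, 136 and 83.1 TPM in wt and 149, 153 and 137 TPM in mutants. It did not overlap, with wt replicate 3 next to the lowest mutant. Of 11 genes, 10 were above 0 (median 0.37), but 8 overlapped between genotypes in scaled CPM. *Trp63*, the master factor of stratified epithelium, was at 1.57, 2.95, 3.79 and 2.16 TPM in wt and 5.17, 4.45 and 4.21 TPM in mutants (0.77, SE 0.22). *Cdh1*, epithelial cadherin, was at 5.11, 9.34, 10.7 and 4.71 TPM in wt and 14.4, 11.7 and 11.1 TPM in mutants (0.68, SE 0.25). *Krt14* was at 2.29 to 4.72 and 2.98 to 4.05 TPM (-0.01, SE 0.25). Endothelial markers were the other list with all mutants above all wt libraries, at 294 to 364 TPM in wt and 370 to 400 TPM in mutants, where *Kdr*, a receptor of vascular endothelial growth factor, gave 0.29 (SE 0.08). How much of any somite difference goes with the amount of these tissues was not tested.

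Blood markers differed most between wt libraries. The erythroid list, dominated by embryonic globins, summed to 32460, 18940, 15960 and 32410 TPM in wt and 18980, 19770 and 15800 TPM in mutants. Wt replicates 1 and 4 were high, and wt replicates 2 and 3 lay in the mutant range. *Hbb-bh1* was at 9539, 5764, 4344 and 9323 TPM in wt and 5007, 5389 and 4681 TPM in mutants (log2 fold change -0.59, SE 0.26), and 11 of 12 genes were below 0. Reads shared by near-identical globin genes may be counted for none of them, so single members and the sum are both uncertain. Macrophage markers summed to 34.8 to 58.1 TPM in wt and 29.1 to 74.4 TPM in mutants. Hepatocyte transcripts summed to 8.73 to 11.5 TPM in all libraries, with *Trf* and *Apoa2* the 2 genes tested and *Alb* and *Afp* below the minimum. Heart muscle genes summed to 55.5 to 74.4 and 63.0 to 88.4 TPM. The member with the largest log2 fold change was *Myh7*, also a slow skeletal muscle myosin, at 5.21, 3.43, 10.7 and 6.70 TPM in wt and 14.1, 11.8 and 10.2 TPM in mutants (0.85, SE 0.27).

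The lateral plate list had a median of 0.54 and a summed change of -0.09, opposite in sign. *Gata4* was at 0.113 to 3.48 and 1.43 to 6.95 TPM (1.16, SE 0.66) and *Wt1*, of mesothelium, at 6.79 to 12.3 and 10.8 to 16.3 TPM (0.59, SE 0.20). *Isl1*, a larger part of the sum that motor neurons express too, was at 73.4 to 94.0 and 50.5 to 79.1 TPM (-0.41, SE 0.14). Limb and girdle mesenchyme genes were above 0 in 13 of 14 (median 0.22), with *Emx2*, which the scapula needs, at 0.52 (SE 0.22) and *Tbx5*, of forelimb bud, at -0.23 (SE 0.36).

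None of the response and proliferation genes was called. Cell cycle genes had a median of -0.02 over 21 tested, and hypoxia and glycolysis genes -0.01 over 20. Heat shock genes had a median of 0.25 over 9, with *Bag3*, a co-chaperone, at 16.6, 21.8, 33.7 and 20.3 TPM in wt and 36.4, 36.3 and 32.4 TPM in mutants (0.56, SE 0.17). Immediate early genes had 0.14 over 13, with *Jun* at 61.5 to 95.7 and 90.3 to 110 TPM (0.37, SE 0.11) and *Fos* at -0.62 (SE 0.37). All 8 tested genes of the developmental timing list, RNA-binding and chromatin factors of early embryos such as *Lin28b* and *Hmga2*, were above 0 (median 0.28). *Hmga2* was at 146, 191, 219.7 and 164 TPM in wt and 224, 248 and 217 TPM in mutants (0.31, SE 0.12). p53 targets had a median of 0.16 over 17.

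**Figure D5:**
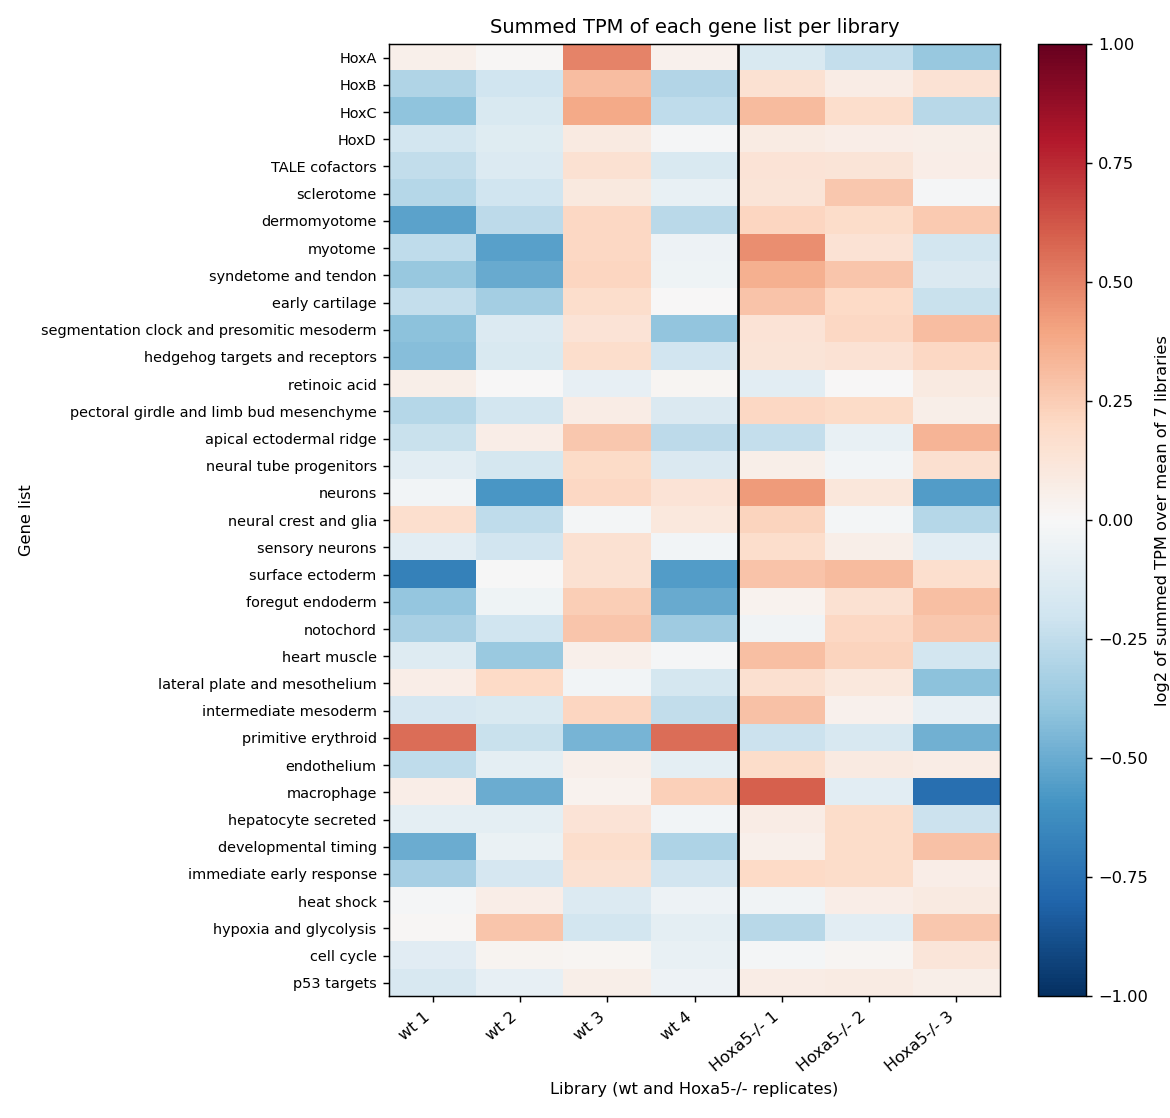
Summed TPM of each of the 35 gene lists in each E10.5 library, as the log2 of its ratio to the mean of the 7 libraries (colour, from -1 to 1); wt libraries are left of the line and *Hoxa5*-/- libraries right. The surface ectoderm sum does not overlap between genotypes, at 76.5 to 136 TPM in wt and 137 to 153 TPM in mutants, though 8 of its 11 genes do. Nor does the *HoxA* sum, at 480 to 671 and 366 to 428 TPM, which includes *Hoxa5* itself. Neurons and erythroid genes vary within genotypes.

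The count of called genes depended most on wt replicate 3. Without it, 386 of 18664 genes were called, 244 higher (1.31%) and 142 lower (0.761%) in mutants, and the 4 genes called with all libraries were among them. At the adjusted p alone, with no fold minimum, 2833 genes passed, 1813 of them higher. For 318 of the 386 wt replicate 3 was nearer to the mutant mean than to the mean of the other wt libraries. Its median place was 90.7% of the way, a value that leaving it out partly fixes. Leaving out *Hoxa5*-/- replicate 3 gave 9 genes, and leaving out wt replicate 1, 2 or 4 or *Hoxa5*-/- replicate 2 gave 1, *Tmem254*. By class, counts were taken among genes also tested with all 7 libraries. Called without wt replicate 3 were 247 of 13566 coding genes, 49 of 2077 RNAs of the lncRNA class and 45 of 1210 processed pseudogenes.

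Members of the lists called without wt replicate 3 came from several tissues. This fit was picked because it changed the count of calls most. It leaves out the wt library on the side of the mutants, which widens the gap between the groups for many genes. Its adjusted p-values, here and in the next paragraph, are therefore descriptive only. From the somite they included *Tcf15* (log2 fold change 0.68, adjusted p = 0.0149), *En1* (0.91, adjusted p = 0.00527), *Des* (0.73, adjusted p = 0.0149), *Cdh15* (0.67, adjusted p = 0.0218) and *Myh3* (0.76, adjusted p = 0.0360). *Aldh1a2* was called too (0.65, adjusted p = 0.0149), as were the FGF target *Etv5* (0.65) and the early response gene *Egr1* (0.72). From surface ectoderm they included *Trp63* (0.97), *Krt5* (0.99), *Cdh1* (0.87) and *Esrp1* (0.81), an epithelial splicing factor. Lower in mutants were *Hbb-bh1* (-0.78), *Hbb-y* (-0.72) and *Hba-a1* (-0.63), globin genes of red cells. The heat shock list gave *Hspb1* (0.78) and *Bag3* (0.77), and p53 targets *Cdkn1a* (0.65) and *Perp* (0.79). No gene of this group was called with all 7 libraries, where their values ran from -0.59 to 0.77.

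The largest folds among the 386 (mean TPM 5 or more) were mostly of noncoding genes and pseudogenes. The rises included *Nr1h5* (log2 fold change 7.19 without wt replicate 3), *Gm13736* (4.85), *Mir7688* (4.57), *Gm11702* (4.55), *Gm4735* (4.22) and *mt-Nd3* (3.20). The falls included *Gm37614* (-4.72), *Gm28438* (-4.08), *Gm23656* (-2.02) and *Gm10222* (-1.83). *Gm21297*, also called, was listed at 0 TPM in wt replicates 1, 2 and 4 and at 8.53 to 16.2 TPM in the other 4 libraries. For *Nr1h5*, *Gm21297*, *Gm13736*, *Gm4735*, *mt-Nd3* and *Gm28438* wt replicate 3 was on the side of at least 1 mutant library and against the other wt libraries. The remaining list members called in that fit included *Myh7* (1.17), *Cldn4* (0.70), *Msx2* (0.61) and *Apoa2* (3.55), an apolipoprotein gene at no more than 4.31 TPM in any wt library.

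Some genes were high in some libraries and near 0 in others, with a gap between neighbouring libraries of at least 2 on the scale of log2(TPM + 0.1) and at least 5 TPM on the high side. This rule, chosen after values were seen, found 45 genes, 15 of them pseudogenes. In 0 of the 45 were all wt libraries on one side and all mutants on the other. In 13 wt replicate 3 sided with at least 1 mutant against the 3 other wt libraries. The same held for wt replicate 2 in 6, which were *Xist* and genes of the Y chromosome, and for wt replicates 1 and 4 in 0. *Hoxa5*-/- replicate 3 stood against the other mutants in 18, which include the same 6 genes.

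*Nr1h5*, a nuclear receptor of the farnesoid X receptor family, was at 63.6 TPM in wt replicate 3 and 57.2 and 61.4 TPM in *Hoxa5*-/- replicates 1 and 2. It was at 0.222, 0.399 and 0.104 TPM in wt replicates 1, 2 and 4 and 0.0963 TPM in *Hoxa5*-/- replicate 3. All 8 E12.5 libraries were at or below 0.0998 TPM. *Gt(ROSA)26Sor*, the noncoding RNA of the widely used Rosa26 locus, was at 148 and 146 TPM in *Hoxa5*-/- replicates 1 and 2. It was at 22.2 TPM in replicate 3, 24.0, 24.0, 25.1 and 36.3 TPM in wt and 17.9 to 34.4 TPM at E12.5. The noncoding *Gm42047* was at 98.3 TPM in *Hoxa5*-/- replicate 3 and at most 0.0488 TPM in the others. *Rpsa-ps10*, a near copy of *Rpsa*, was at 905 TPM in wt replicate 3 and 12.9 to 22.02 TPM in the other libraries.

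Whether an effect was particular to E10.5 was tested as the change at E12.5 minus that at E10.5. Of 20419 genes, 3 passed (0.0147%). *Tmem254* differed by -1.38 on the log2 scale (SE 0.12, adjusted p = 2.72e-05), *Gm6969* by 1.25 (SE 0.16, adjusted p = 0.00267) and *Rtraf-ps* by 1.26 (SE 0.19, adjusted p = 0.0334). For all 3, mutants and wt overlapped at E12.5. *Duxbl1* differed by -0.76 (SE 0.16, adjusted p = 0.327), which did not pass, and *AI506816* by -1.16 (SE 0.20, adjusted p = 0.0784). Without wt replicate 3 of E10.5, 2571 genes passed, and without *Hoxa5*-/- replicates 3 and 1, 16 and 7. *Tmem254* and *Gm6969* passed in each fit without 1 library of E10.5, while *Rtraf-ps* passed only without wt replicate 3 or *Hoxa5*-/- replicate 3.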

How the data were processed

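Somites were profiled by polyA RNA-seq (paired-end reads of 150 bases). Per the labels, the authors used Trim Galore 0.6.5 for trimming, STAR 2.7.9a for alignment to GRCm39 and featureCounts 2.0.3 for counting reads per gene, in an annotation curated for *Hox* genes. The deposited raw counts are whole reads per gene without normalization. Per the paper, only reads mapped to unique regions were used further. Reads that fit several copies equally well would thus be counted for none of them. The deposited TPM are the authors' values from these counts and gene lengths and sum to 1000000 per library. Which strand was counted is not given in the sources used here.

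Counts were tested with edgeR 4.0.16 (quasi-likelihood, TMM factors, R 4.3.3) between 4 wt and 3 *Hoxa5*-/- libraries, over genes whose mean TPM reached 1 in wt or in mutants. Called genes had a Benjamini-Hochberg adjusted p under 0.05 and a fold of at least 1.5. The study used DESeq2, which here (1.42.0) was an alternative. The stage difference was tested in 1 fit of 15 somite libraries. Members and gene lists were chosen with earlier results of these data known. Named genes were the *Hox* and TALE genes, called genes, the 10 lowest p per direction without overlap, the extremes of each list, genes near *Hoxa5*, list members and largest folds called without wt replicate 3, genes that passed the stage difference and *Xist* with Y-linked genes. Pseudogene exon sequences were read from the GRCm39 genome and compared with annotated transcripts by blastn 2.17.0. The test was checked on simulated counts with 200 changed genes. These counts had the same dispersion for all genes and no shift of whole libraries. The check therefore does not bear on how the calls depend on single libraries. The total counts per library limit the precision of genes with few reads. Libraries of other tissues were not used, and results of some genes are not reported here. Alternatives covered tests, scaling, filters, covariates, the replicate block and leaving out each library.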

Additional observations from a re-analysis of the deposited data

Results flagged for a closer look

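In 8 of 100 groups of wt values looked at, wt replicate 3 stood apart from the other 3 wt libraries by more than Dixon's limit for 4 samples, and chance gives about 1 in 20 such groups. It was the highest wt library for *Hoxa5* (236 TPM), *Hoxa6* (89.4 TPM), *Hoxb3* (44.6 TPM), *Hoxb8* (231 TPM) and *Hoxc6* (190 TPM). It was also the highest for summed *HoxA* (671 TPM), summed *HoxB* (1509 TPM) and summed neural tube progenitor markers (1212 TPM). The genes of these groups are not independent of each other.

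The genotype effect differed between E12.5 and E10.5, by a test of the difference, for *Tmem254* (-1.38 on the log2 scale), *Gm6969* (1.25) and *Rtraf-ps* (1.26). *Rtraf-ps* did not pass in 5 of the 7 fits without 1 E10.5 library, nor with the replicate block.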

How the results depend on the processing

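The count of 4 called genes became 18 by DESeq2, 147 with no filter, 2 when mean TPM had to reach 5, 8 in 1 fit of all 15 somite libraries and 2 with *Xist* as a covariate (*Tmem254* and *Gm42047*, so that *Hoxa5*, *Duxbl1* and *Gm6969* lost their calls). It stayed within 1.5 times with other scaling, at least 10 counts, no fold minimum, and stage position, neuron markers or (added after seeing the data) ribosomal protein share as a covariate. With the replicate number as a block it was 0 by edgeR, with 1105 genes at an unadjusted p under 0.05. The labels do not say that the numbers pair the samples. Deviations of same-numbered libraries correlated at 0.025, 0.023 and -0.028, and those of other numbers at -0.129 to 0.106. These values cannot settle whether samples shared a litter or dissection day. Leaving out 1 library gave 1 to 386, the highest without wt replicate 3. *Tmem254* was called in 19 of 20 alternatives (all but the block), *Duxbl1* in 12, *Hoxa5* in 11 and *Gm6969* in 10. The 3 genes of the stage difference became 17 by DESeq2, 1 with the replicate block, and 2 to 2571 without 1 library. The difference in stage position kept its direction, from 1.53 to 8.38 percentage points. Over 114 genes, 4 values reversed: *Nr1h5* (-1.989) and *Gm49708* (-0.54) with stage position as a covariate, and *ENSMUSG00000120777* (0.31) and *Hba-a1* (0.086) with the ribosomal protein share. The causes were not tested. With 3 and 4 libraries, effects of the size of the spread between libraries could not be detected.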
